A study of Mus musculus with 89 samples.

Results

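The MHC class II genes measured here were the chain genes H2-Ea, H2-Eb1, H2-Aa and H2-Ab1, the peptide-exchange genes H2-DMa and H2-DMb1, the invariant chain gene Cd74 and the regulator gene Ciita. They are 8 of the 17097 genes on the arrays, and all 8 passed the filter on low signals. Where a gene has several probe sets, the one with the brightest average across the 89 arrays was read. A class II molecule is an alpha and beta chain pair (H2-Aa with H2-Ab1, H2-Ea with H2-Eb1) that shows peptides to CD4+ T cells. It is built in the endoplasmic reticulum around the invariant chain Cd74, and in the endosome the H2-DM pair swaps the remnant of Cd74 for a peptide. Ciita is the coactivator that switches these genes on together. In lung they are carried by dendritic cells, B cells and macrophages, and also by alveolar type 2 epithelium. Many laboratory strains with the b haplotype, C57BL/6 among them, carry a deletion that silences H2-Ea and so make no E alpha chain, whereas BALB/c mice, which have the d haplotype, express it.

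Left lung lobes of male mice aged 7 to 8 weeks were profiled in 18 groups of 2 to 6 arrays. The strains were BALB/c and C57BL/6, both wild type, and SP-D-/-, mice without surfactant protein D, a lectin of the alveolar lining. The labels give no background strain for SP-D-/-. In each strain 1 group breathed air for 2 h and 1 group breathed ozone (3 ppm) for 2 h, and lungs were taken 12 h later. The other groups were sensitized to the mould Aspergillus fumigatus (Af) by injections on days 0 and 7, and on day 13 they were given Af through the nose. Their lungs were taken 24 h after this challenge with air, 96 h after it with ozone, or 168 h after it with air or with ozone, the air or ozone ending 12 h before sampling. The number of arrays was, for air, ozone, Af 24 h air, Af 96 h ozone, Af 168 h air and Af 168 h ozone, 5, 2, 5, 6, 6 and 4 in BALB/c, 5, 4, 6, 6, 5 and 4 in SP-D-/-, and 6, 6, 4, 5, 4 and 6 in C57BL/6. Nothing beyond replicate numbers says that the arrays of a group are separate animals, so the p-values measure the spread between these arrays.

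The class II chain genes share short promoter elements, and the 4 promoters below are shown because they carry 2 of them in the same arrangement. The letters searched on both strands were GNAACT and TGATTGG, taken from the X and Y boxes known in class II promoters and chosen after the sequences were seen. GNAACT occurred in 42.8% and TGATTGG in 7.82% of 32851 RefSeq promoters of 250 bases before to 50 bases after a gene start. Both on 1 strand with 30 or 31 bases from start to start occurred in 12 promoters (0.0365%), and 4 of the 12 belong to class II genes. Capitals mark the 2 elements, each sequence reads along its gene's strand, and the build is GRCm38.p6, which is a C57BL/6J genome.
H2-Eb1, chr17:34305752-34305824, plus strand: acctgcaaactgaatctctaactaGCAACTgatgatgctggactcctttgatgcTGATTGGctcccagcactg
H2-Aa, chr17:34287855-34287928, minus strand: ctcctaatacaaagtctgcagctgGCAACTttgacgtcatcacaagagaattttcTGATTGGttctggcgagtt
H2-DMb1, chr17:34153073-34153146, plus strand: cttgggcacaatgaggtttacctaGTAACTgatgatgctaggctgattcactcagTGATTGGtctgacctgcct
H2-Eb2, chr17:34325519-34325591, plus strand: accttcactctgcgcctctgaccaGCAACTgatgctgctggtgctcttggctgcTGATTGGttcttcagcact
GNAACT began 91 bases before the start of H2-Eb1, 81 before H2-Aa, 94 before H2-DMb1 and 132 before H2-Eb2, a further class II beta gene. These letters were not found as a pair in either H2-DMa promoter or in those of H2-DMb2, H2-Oa and H2-Ob. H2-Ea, H2-Ab1 and Ciita were not analysed here for sequence. RefSeq lists H2-Ea of this genome as a transcribed pseudogene. Its neighbours on chromosome 17 are, in order, H2-Ab1, H2-Aa, H2-Eb1, H2-Eb2, H2-Ea, Btnl2 and Btnl1. Ciita lies on chromosome 16.

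Signals are on the deposited log2 scale, on which each array has the same median of 4.90, and a change is a difference of group means on that scale with its SE from limma. A gene was called at an adjusted p under 0.05 over 15065 genes tested. Because probe sets differ in brightness, no gene's signal is set against another's. The lung checks Scgb1a1, Ager, Pecam1, Cldn5, Foxj1 and Col1a1 were all measured, with a mean signal of 8.58 to 9.87 over the groups. Between arrays the mean signal of 10 added hybridization controls, called the spike level here, ran from 7.86 to 11.76. An earlier analysis of these data set 5 arrays apart, because a strain index (from 1, the BALB/c air mean, to -1, the C57BL/6 air mean, over 40 genes that are not among the 8) or Sftpd, the gene removed in SP-D-/-, went against their labels. The library labelled BALB/c Af 168 h ozone replicate 6 had an index of -0.34 and an Sftpd signal of 5.59. The libraries labelled BALB/c Af 24 h air replicates 4 and 5 had 0.17 and 0.63, with Sftpd at 8.79 and 7.68. The library labelled C57BL/6 Af 96 h ozone replicate 1 had an index of 0.71, and the library labelled SP-D-/- Af 96 h ozone replicate 1 had Sftpd at 10.9. The other 25 BALB/c arrays had Sftpd of 9.61 to 11.2, the other 29 SP-D-/- arrays 4.42 to 7.76 and the other 30 C57BL/6 arrays 9.20 to 11.1. Values below are for all 89 arrays by their labels unless 84 arrays are named, and the number of arrays limits their precision.

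H2-Ea, the E alpha chain gene, was higher in BALB/c than in C57BL/6 lungs at every exposure. In air its log2 signal was 9.12, 9.57, 9.34, 9.12 and 9.05 in BALB/c lungs, against 4.005 to 5.02 (median 4.59) in 6 C57BL/6 lungs. After ozone it was 8.93 and 9.09 in BALB/c lungs, against 4.21 to 5.96 (median 4.31) in 6 C57BL/6 lungs. At Af 24 h air it was 8.95, 8.29, 8.32, 7.19 and 5.25 in BALB/c lungs, against 5.23, 4.08, 5.24 and 4.88 in C57BL/6 lungs. The BALB/c arrays lay above every C57BL/6 array at these exposures, which 1.85% of all genes did in air, 8.68% after ozone and 0.445% at Af 24 h air, with the 2 lowest BALB/c values from the 2 libraries set apart. At Af 96 h ozone the signal was 7.46 to 9.27 (median 8.64) in 6 BALB/c lungs, against 7.87, 5.97, 5.29, 5.37 and 4.71 in C57BL/6 lungs. At Af 168 h air it was 7.89 to 9.65 (median 9.05) in 6 BALB/c lungs, against 4.32, 4.42, 4.79 and 4.89 in C57BL/6 lungs, again with no overlap (1.09% of all genes). At Af 168 h ozone it was 8.94, 9.23, 8.93 and 5.48 in BALB/c lungs, against 4.40 to 7.12 (median 4.85) in 6 C57BL/6 lungs. The groups overlapped at the 2 exposures to allergen and ozone, where the 7.87 in C57BL/6 and the 5.48 in BALB/c lungs both came from libraries set apart.

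By limma, the BALB/c minus C57BL/6 change of H2-Ea was 4.70 ± 0.48 in air (adjusted p = 3.0e-11). It was 4.44 ± 0.65 after ozone and 4.32 ± 0.52 at Af 168 h air. It was 2.74 ± 0.54 at Af 24 h air (adjusted p = 0.0034), 2.66 ± 0.48 at Af 96 h ozone (adjusted p = 0.00037) and 2.81 ± 0.52 at Af 168 h ozone (adjusted p = 0.0023). The C57BL/6 means were 4.54 in air, 4.57 after ozone, 4.86 at Af 24 h air and 4.61 at Af 168 h air, below the array median of 4.90 and near the level of the filter on low signals (4.45), so these changes are measured against a signal close to background and no fold is given. In these comparisons 0.511% of all genes were called in air, 0.146% after ozone, 0.385% at Af 24 h air, 6.26% at Af 96 h ozone, 0.597% at Af 168 h air and 0.139% at Af 168 h ozone. H2-Ea was the largest of the called rises in all of them but Af 96 h ozone, where it was number 11 of 568. H2-Ea was 1 of 6 genes called at all 6 exposures, with Gbp2b, which was also higher in BALB/c, and Ankrd63, Cep85, Pttg1 and Trim12a, which were lower. None of the other 7 class II genes was called in any of the 6 comparisons in the fit of all arrays. At an unadjusted p under 0.05, the count of the 8 genes was 2 in air, 1 after ozone, 5 at Af 24 h air, 3 at Af 96 h ozone, 1 at Af 168 h air and 2 at Af 168 h ozone.

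On the 84 arrays the change of H2-Ea was 4.70 in air, 4.44 after ozone, 3.67 at Af 24 h air, 3.17 at Af 96 h ozone, 4.32 at Af 168 h air and 3.70 at Af 168 h ozone, all called. Left out singly from all 89, BALB/c Af 168 h ozone replicates 3, 4 and 5 ended the limma call there, with changes of 2.55, 2.45 and 2.55 (adjusted p of 0.078, 0.12 and 0.084). On the 84 arrays 2 further members were called at Af 96 h ozone, H2-Aa at -0.60 (limma adjusted p = 0.042) and H2-DMa at 1.60 (limma adjusted p = 0.0498). Of all genes 14.8% were called there. With the spike level as a covariate on the 84 arrays H2-Aa was called in air (-0.64, limma adjusted p = 0.011) and at Af 168 h ozone (-0.72, limma adjusted p = 0.029). In these 2 comparisons 0.976% and 0.511% of all genes were called. With the spike level on all 89 arrays H2-Eb1 (-1.52), H2-Aa (-0.74) and Cd74 (-1.18) were called at Af 24 h air, the group with 2 libraries set apart. The share of all genes was 0.903% in that fit. The libraries were set apart by genes that differ between the strains, so the larger values without them are no separate support for the strain difference. The order of the 18 group means put the 6 BALB/c groups first, with 9.24 ± 0.21 in air, 9.01 ± 0.11 after ozone, 8.92 ± 0.60 at Af 168 h air, 8.51 ± 0.69 at Af 96 h ozone, 8.15 ± 1.78 at Af 168 h ozone and 7.60 ± 1.46 at Af 24 h air (SD). C57BL/6 Af 96 h ozone came next at 5.84 ± 1.22, and SP-D-/- air came last at 4.40 ± 0.19. Each group in that order overlapped the next in range, so it separates the strains by their means and not the exposures within a strain.

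**Figure D1:**
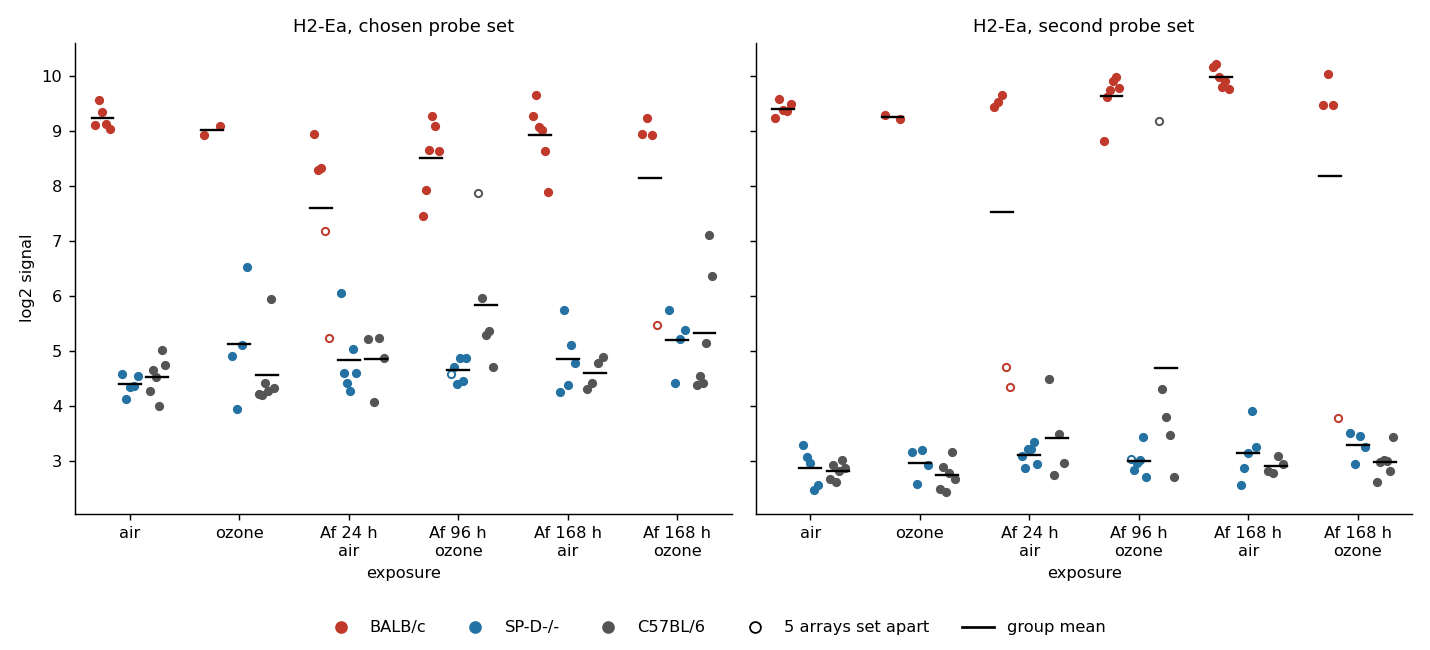
Log2 signal of H2-Ea on each of the 89 arrays, by strain and exposure, for its chosen and its second probe set, with group means as horizontal lines and the 5 libraries set apart as open symbols. On the chosen probe set BALB/c arrays other than those set apart lie between 7.46 and 9.65, and SP-D-/- arrays lie between 3.94 and 6.53.

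H2-Ea has 3 probe sets, and they do not give the same size of difference. The chosen one, 1422891_PM_at, gave the values above. The second, 1422892_PM_s_at, gave BALB/c minus C57BL/6 changes of 6.58 in air, 6.51 after ozone, 4.11 at Af 24 h air, 4.94 at Af 96 h ozone, 7.06 at Af 168 h air and 5.20 at Af 168 h ozone. On it the 25 BALB/c arrays not set apart had 8.81 to 10.2. The 29 SP-D-/- arrays had 2.48 to 3.91 and the 30 C57BL/6 arrays 2.44 to 4.49, and neither strain overlapped BALB/c. Arrays were set apart by strain genes or Sftpd, so this separation is no separate support for the strain difference. With every array, BALB/c ran from 3.78 to 10.2 and C57BL/6 from 2.44 to 9.18, which overlapped. The changes on this probe set too are set against a signal close to background. The library labelled C57BL/6 Af 96 h ozone replicate 1 had 9.18 on it, within the BALB/c range. The 3 BALB/c libraries set apart had 3.78 (Af 168 h ozone replicate 6), 4.71 and 4.36 (Af 24 h air replicates 4 and 5), near the C57BL/6 values. The third, 1426202_PM_at, lay between 3.38 and 5.31 on all arrays and gave no call at any exposure.

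The chosen probe set also read above 6 on 4 arrays outside BALB/c that were not set apart. These were C57BL/6 Af 168 h ozone replicates 5 and 6, at 7.12 and 6.37, SP-D-/- ozone replicate 5 at 6.53 and SP-D-/- Af 24 h air replicate 1 at 6.06. The second probe set read 2.83, 3.45, 2.93 and 3.10 on those arrays, within the range of their strains. Their spike levels were 11.3, 10.97, 11.4 and 11.6, in the upper part of the range over all arrays. The part of the spike level in these signals was not tested.

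In SP-D-/- lungs H2-Ea was low. In air its signal was 4.60, 4.12, 4.36, 4.38 and 4.55 in SP-D-/- lungs, against 4.005 to 5.02 in C57BL/6 lungs. The SP-D-/- minus C57BL/6 change was -0.14 ± 0.48 in air, and it was not called at any exposure. The strain index of the SP-D-/- arrays ran from -1.08 to -0.45, on the C57BL/6 side.

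**Figure D2:**
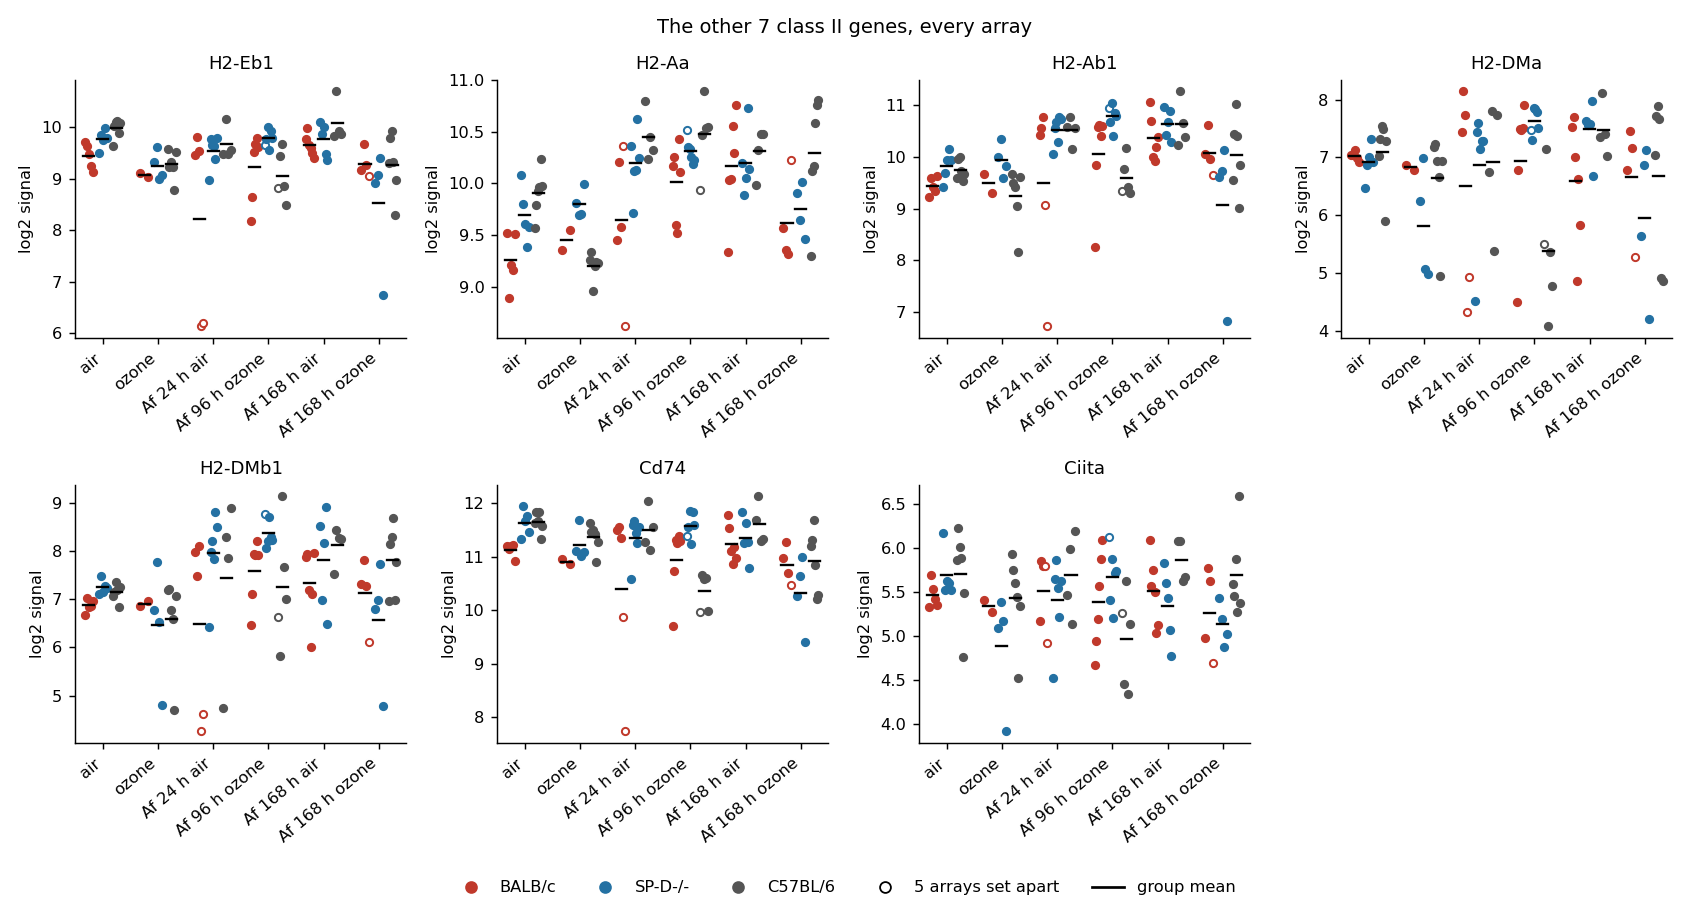
Log2 signal of the other 7 class II genes on each of the 89 arrays, by strain and exposure, with group means as horizontal lines and the libraries set apart as open symbols. Strain ranges overlap in each of these genes, and low values of H2-DMa reach 4.08.

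H2-Eb1, the E beta chain gene that partners H2-Ea, was present in all 3 strains. Its group means ran from 8.23 (BALB/c Af 24 h air) to 10.1 (C57BL/6 Af 168 h air). In air it was 9.71, 9.64, 9.48, 9.25 and 9.14 in BALB/c lungs, against 9.64 to 10.12 (median 10.05) in 6 C57BL/6 lungs. The BALB/c minus C57BL/6 change in air was -0.53 ± 0.37 and was not called by limma, beside 4.70 for its partner H2-Ea. At Af 24 h air H2-Eb1 was 9.45, 9.80, 9.54, 6.14 and 6.20 in BALB/c lungs, against 9.48, 10.16, 9.47 and 9.55 in C57BL/6 lungs. The 2 low values were the libraries set apart.

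The A chain genes H2-Aa and H2-Ab1 gave no called BALB/c minus C57BL/6 difference by their chosen probe sets in the fit of all arrays, and the calls of H2-Aa in other fits are given above. In air H2-Aa was 9.52, 8.89, 9.21, 9.17 and 9.51 in BALB/c lungs, against 9.57 to 10.23 (median 9.95) in 6 C57BL/6 lungs. All BALB/c arrays were below all C57BL/6 arrays there, as in 2.22% of all genes, and the change was -0.65 ± 0.22 (limma adjusted p = 0.37). H2-Ab1 in air was 9.23, 9.59, 9.41, 9.34 and 9.62 in BALB/c lungs, against 9.54 to 10.003 (median 9.69) in 6 C57BL/6 lungs, and these ranges overlapped. Cd74, on chromosome 18, was in air 11.19, 11.15, 11.20, 11.22 and 10.92 in BALB/c lungs, against 11.33 to 11.84 (median 11.65) in 6 C57BL/6 lungs, which lay apart, with a change of -0.51 ± 0.33 that was not called.

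The probe sets of H2-Aa disagreed. The chosen one, 1438858_PM_x_at, has a suffix that Affymetrix gives to probe sets that may also bind other transcripts. Its correlation with 1452431_PM_s_at over the 89 arrays was r = -0.04, given as a description. The third, 1443783_PM_x_at, was lower in BALB/c at all exposures, by changes of -2.16 in air, -1.90 after ozone, -2.86 at Af 24 h air, -1.88 at Af 96 h ozone, -3.13 at Af 168 h air and -2.44 at Af 168 h ozone, called in all but ozone. In air it read 3.43 ± 0.32 in BALB/c lungs (n = 5) and 5.60 ± 0.51 in C57BL/6 lungs (n = 6), and this BALB/c level is below the filter level. Class II chain genes are among the most variable between mouse strains. The probes were not compared with BALB/c alleles here, so for these genes a difference in RNA and a difference in binding to the probes cannot be told apart.

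**Figure D3:**
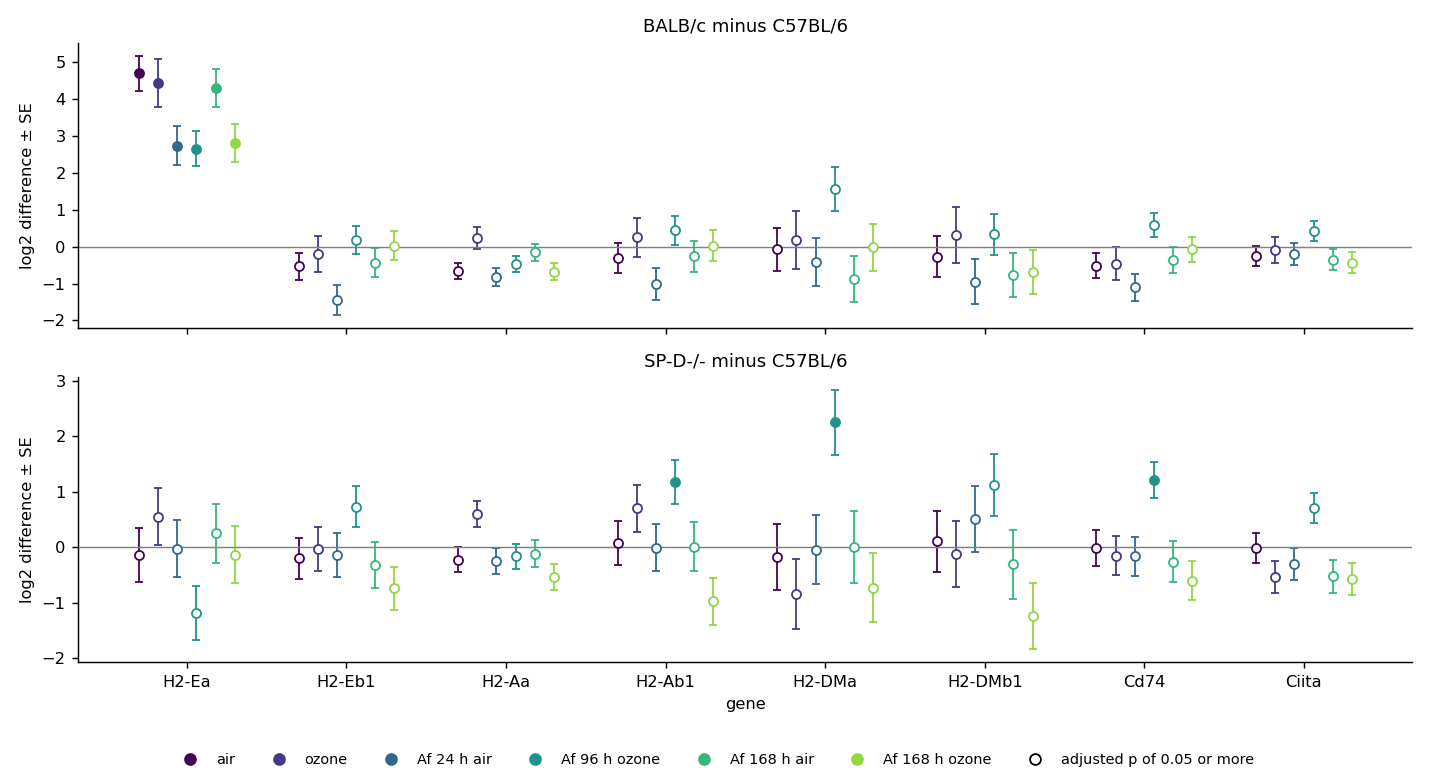
Log2 change of each class II gene at each exposure, BALB/c minus C57BL/6 and SP-D-/- minus C57BL/6, with SE as bars and filled symbols where called by limma over 15065 genes. H2-Ea stands between 2.66 and 4.70 in BALB/c, and H2-DMa reaches 2.25 in SP-D-/- at Af 96 h ozone.

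Class II genes were called between SP-D-/- and C57BL/6 lungs at 1 exposure, Af 96 h ozone, where Cd74, H2-Ab1 and H2-DMa were higher in SP-D-/- lungs. Cd74, the invariant chain, was 11.23 to 11.85 (median 11.58) in 6 SP-D-/- lungs, against 9.97, 10.66, 10.58, 10.60 and 9.997 in C57BL/6 lungs. H2-Ab1 was 10.39 to 11.04 (median 10.81) in 6 SP-D-/- lungs, against 9.34, 9.76, 10.17, 9.42 and 9.29 in C57BL/6 lungs. H2-DMa, the alpha chain of the peptide-exchange factor, was 7.30 to 7.85 (median 7.65) in 6 SP-D-/- lungs, against 5.50, 7.15, 4.08, 5.37 and 4.78 in C57BL/6 lungs. In all 3 genes each SP-D-/- array was above each C57BL/6 array, as in 6.26% of all genes.

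The limma changes were 1.22 ± 0.33 for Cd74 (adjusted p = 0.013), 1.18 ± 0.40 for H2-Ab1 (adjusted p = 0.034) and 2.25 ± 0.59 for H2-DMa (adjusted p = 0.011). In this comparison 16.2% of all genes were called, so 3 of 8 class II genes stand against a wide background of change. The median change of the 8 genes was 0.93, against 0.10 over all genes. H2-DMb1 (1.13 ± 0.56), Ciita (0.71 ± 0.27) and H2-Eb1 (0.73 ± 0.37) were not called. On the 84 arrays Cd74, H2-Ab1 and H2-DMa stayed called, at 1.16, 1.09 and 2.31, where 21.8% of all genes were called. The call of H2-Ab1 was lost when SP-D-/- replicate 1, 3, 5 or 6 or C57BL/6 replicate 1, 2, 4 or 6 was left out of the 89, with changes of 1.11 to 1.23 (limma adjusted p of 0.051 to 0.069). The mean spike level was 9.41 ± 0.61 in the SP-D-/- group and 10.9 ± 0.45 in the C57BL/6 group. With it as a covariate on the 84 arrays Cd74 was at 0.70 (limma adjusted p = 0.039), H2-Ab1 at 0.60 (adjusted p = 0.34) and H2-DMa at 1.34 (adjusted p = 0.11). In that fit 2.65% of all genes were called. The other 2 probe sets of H2-Ab1 and the other probe set of H2-DMa were called in the same direction, at 1.66, 1.79 and 1.31. The H2-Aa probe set 1452431_PM_s_at was called too, at 1.41, while the chosen one gave -0.16 and was not called.

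At the other 5 exposures none of the 8 genes was called between SP-D-/- and C57BL/6 in the fit of all arrays. With the spike level on the 84 arrays H2-Ab1 was called after ozone (1.23, limma adjusted p = 0.036) and H2-Aa at Af 168 h ozone (-0.70, limma adjusted p = 0.012). That fit called 0.816% and 2.2% of all genes in these comparisons. In the fit of all arrays the share of all genes called was 0.0664% in air, 0.797% after ozone, 0.0863% at Af 24 h air, 0.0199% at Af 168 h air and 0.504% at Af 168 h ozone. At an unadjusted p under 0.05 by limma, the count of the 8 genes was 0 in air, 1 after ozone, 0 at both Af 24 h air and Af 168 h air, and 3 at Af 168 h ozone. Over all genes that count was 182 in air, 2760 after ozone, 1548 at Af 24 h air, 594 at Af 168 h air and 1983 at Af 168 h ozone. In air the level of Cd74 was 11.33, 11.94, 11.67, 11.77 and 11.47 in SP-D-/- lungs, against 11.33 to 11.84 (median 11.65) in C57BL/6 lungs. These ranges overlapped, and the median change of the 8 genes in air was -0.08, against 0.02 over all genes.

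Ozone alone moved no class II gene past the threshold in any strain. In C57BL/6 lungs 0.0266% of all genes were called for ozone minus air, in SP-D-/- lungs 0.0996% and in BALB/c lungs 0.0133%. Over all genes limma gave 187 unadjusted p under 0.05 in C57BL/6, 2511 in SP-D-/- and 157 in BALB/c. Of the 8 class II genes the count was 1 in C57BL/6, 1 in SP-D-/- and 0 in BALB/c. The one in C57BL/6 was H2-Aa, at 8.96 to 9.34 (median 9.24) after ozone against 9.57 to 10.23 in air, with no overlap (as in 0.498% of all genes, H2-Eb1 among them) and a change of -0.71 ± 0.21 (adjusted p = 0.72). The one in SP-D-/- was Ciita, the class II coactivator, at 5.09, 5.38, 5.17 and 3.91 after ozone against 6.17, 5.52, 5.62, 5.60 and 5.52 in air, a change of -0.80 ± 0.30 (adjusted p = 0.20).

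One day after the allergen challenge, no class II gene was called in C57BL/6 or SP-D-/- lungs for Af 24 h air minus air. Of all genes 16.2% were called in C57BL/6, 4.71% in SP-D-/- and 12.1% in BALB/c. At an unadjusted p under 0.05 by limma 1 of the 8 was counted in C57BL/6 and 1 in SP-D-/-, H2-Aa in both. Over all genes that count was 5031 in C57BL/6 and 2734 in SP-D-/-. In BALB/c lungs H2-Ea was called at -1.64 ± 0.51 (limma adjusted p = 0.024) and H2-Eb1 at -1.22 ± 0.38 (limma adjusted p = 0.028). Both calls were lost without either of the 2 libraries set apart in that group, with changes of -1.05 to -1.54 for H2-Ea and -0.69 to -0.71 for H2-Eb1. They were also lost without BALB/c air replicate 2, and that of H2-Eb1 without air replicate 1 or 3. On the 84 arrays the changes were -0.72 for H2-Ea and 0.16 for H2-Eb1, and neither was called, where 4.51% of all genes were.

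All arrays of H2-Ab1, the A beta chain gene, lay higher at Af 168 h air than the air arrays of their strain. At Af 168 h air it was 9.91 to 11.06 (median 10.28) in 6 BALB/c lungs, against 9.23, 9.59, 9.41, 9.34 and 9.62 in BALB/c air lungs. It was 10.96, 10.41, 10.67, 10.88 and 10.27 in SP-D-/- lungs at Af 168 h air, against 9.42, 9.69, 9.94, 10.14 and 9.94 in SP-D-/- air lungs. It was 10.22, 11.26, 10.65 and 10.38 in C57BL/6 lungs at Af 168 h air, against 9.54 to 10.003 in 6 C57BL/6 air lungs. No allergen array overlapped the air arrays of its strain. Over all genes, such a separation upward was found in 2.77% in BALB/c, 4.27% in SP-D-/- and 9.35% in C57BL/6, and H2-DMb1 was the other class II gene with it, in C57BL/6.

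By limma the H2-Ab1 change at Af 168 h air was 0.93 ± 0.40 in BALB/c (adjusted p = 0.24), 0.81 ± 0.41 in SP-D-/- (adjusted p = 0.34) and 0.88 ± 0.42 in C57BL/6 (adjusted p = 0.38), so none passed. On the 84 arrays with the spike level as a covariate it was 1.28 in BALB/c (adjusted p = 0.0060), 1.04 in SP-D-/- (adjusted p = 0.031) and 0.81 in C57BL/6 (adjusted p = 0.10). In the same fit the Af 24 h air change of H2-Ab1 was 1.27 in BALB/c (adjusted p = 0.011), 0.92 in SP-D-/- (adjusted p = 0.033) and 1.11 in C57BL/6 (adjusted p = 0.0093). That fit called, in the same order of strains, 1.87%, 3.41% and 4.79% of all genes at Af 168 h air. At Af 24 h air it called 7.57%, 6.22% and 12.8%. H2-Aa was the only class II gene called at Af 168 h air in the fit of all arrays. In BALB/c it was 9.33 to 10.76 (median 10.17) in 6 lungs at Af 168 h air, against 9.52, 8.89, 9.21, 9.17 and 9.51 in air, a change of 0.91 ± 0.22 (limma adjusted p = 0.017) with overlapping groups. This call was lost when Af 168 h air replicate 4 or 6 or air replicate 2, 3 or 4 was left out, with changes of 0.79 to 0.89. Its probe set 1443783_PM_x_at, which read low in BALB/c, turned direction in this comparison, as given below. The spike level averaged 10.3 ± 1.20 at Af 168 h air and 9.10 ± 0.66 in air in BALB/c lungs. With it as a covariate on the 84 arrays H2-Aa was at 0.66 in BALB/c and stayed called (limma adjusted p = 0.010). The share of all genes called at Af 168 h air was 1.56% in BALB/c, 1.35% in SP-D-/- and 1.35% in C57BL/6. In SP-D-/- and C57BL/6, 1 of the 8 genes each had an unadjusted p under 0.05, H2-Aa in SP-D-/- and H2-Ab1 in C57BL/6. Over all genes the count was 2291 in SP-D-/- and 1788 in C57BL/6.

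In C57BL/6 lungs 3 class II genes were called at Af 96 h ozone, set against ozone alone, where 36.4% of all genes were called. H2-Aa was 9.93, 10.47, 10.89, 10.54 and 10.54 at Af 96 h ozone, against 8.96 to 9.34 (median 9.24) in 6 lungs after ozone, a change of 1.27 ± 0.22 (limma adjusted p = 1.3e-05). Cd74 was 9.97, 10.66, 10.58, 10.60 and 9.997 at Af 96 h ozone, against 10.91 to 11.64 (median 11.45) in 6 lungs after ozone, a change of -1.01 ± 0.33 (limma adjusted p = 0.014). In both genes the groups did not overlap, and they moved in opposite directions. Of all genes 6.64% lay wholly above and 9.9% wholly below in this comparison. Cell and tissue markers were called in it too, with 3 of 9 macrophage and monocyte markers lower (Cd68 at -1.56, Siglecf at -1.42 and Marco) and 1 higher (Ccr2 at 1.26), 2 of 8 dendritic cell markers lower (Ccl22 at -2.01 and Ccl17 at -0.73), 1 of 5 type 2 cell markers lower (Napsa at -0.78), 1 of 7 T cell markers higher (Cd4 at 0.64) and no B cell marker. Of the 6 lung checks 4 were lower, led by Pecam1 at -2.54 and Col1a1 at -2.46. The list medians were -0.70 for macrophages and monocytes, -0.23 for dendritic cells, -0.76 for type 2 cells and -0.97 for the lung checks, against 0.00 over all genes. Their part in the class II values was not tested. H2-Ea was called at 1.27 ± 0.48 (limma adjusted p = 0.033), but without the library labelled C57BL/6 Af 96 h ozone replicate 1 it was 0.77 and was not called. That call was also lost without Af 96 h ozone replicate 2 or ozone replicate 1, 2, 3, 4 or 6, with changes of 1.20 to 1.24. The H2-Aa probe set 1452431_PM_s_at changed by -0.79 in the same comparison and was not called. The spike level averaged 10.9 ± 0.45 at Af 96 h ozone and 8.59 ± 1.14 after ozone. With it as a covariate on the 84 arrays H2-Aa was at 0.89 and stayed called, H2-Ab1 and H2-DMb1 were called at 1.15 and 1.80, and Cd74 was at -0.23 and was not called. In that fit 15.4% of all genes were called.

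In SP-D-/- lungs the same comparison gave no called class II gene, with 2.58% of all genes called. By limma 4 of the 8 had an unadjusted p under 0.05, beside 2836 of all 15065 genes tested. H2-DMb1 was 8.07 to 8.78 (median 8.26) in 6 lungs at Af 96 h ozone, against 6.78, 7.78, 6.53 and 4.80 after ozone, a change of 1.91 ± 0.59 (adjusted p = 0.059). H2-DMa was 7.30 to 7.85 at Af 96 h ozone, against 6.24, 6.99, 5.07 and 4.98 after ozone, a change of 1.81 ± 0.63 (adjusted p = 0.098). In BALB/c lungs, with 2 ozone arrays, none of the 8 was called or had an unadjusted p under 0.05 by limma. Of all genes 0.0531% were called, and 723 had an unadjusted p under 0.05.

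Ozone after the allergen, set against air after the allergen at 168 h, gave no called class II gene in any strain. Of all genes 0.604% were called in SP-D-/-, 0.0199% in BALB/c and 0.0597% in C57BL/6. In SP-D-/- lungs 5 of the 8 genes had an unadjusted p under 0.05 by limma, beside 2521 of all 15065 genes tested. All 5 were lower with ozone. H2-Ab1 was 9.60, 9.73, 10.13 and 6.84 at Af 168 h ozone, against 10.96, 10.41, 10.67, 10.88 and 10.27 at Af 168 h air, a change of -1.56 ± 0.44 (adjusted p = 0.063). H2-Eb1 changed by -1.23 ± 0.41 (adjusted p = 0.12) and Cd74 by -1.03 ± 0.36 (adjusted p = 0.14). Replicate 6 of the ozone group was lowest in all 3 genes, with H2-Eb1 at 6.74 and Cd74 at 9.40, and its spike level was 11.6. Adgre1, a macrophage marker, was called lower in the same comparison, at -1.84, and its part was not tested. On the 84 arrays, which leave out no array of these 2 groups but estimate the shared spread without the 5, all 3 were called, with adjusted p of 0.015, 0.020 and 0.028 by limma. In that fit 2.06% of all genes were called. In BALB/c and in C57BL/6, 1 of the 8 genes each had an unadjusted p under 0.05, H2-Aa in BALB/c and H2-Eb1 in C57BL/6. Over all genes the count was 1187 in BALB/c and 2396 in C57BL/6.

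**Figure D4:**
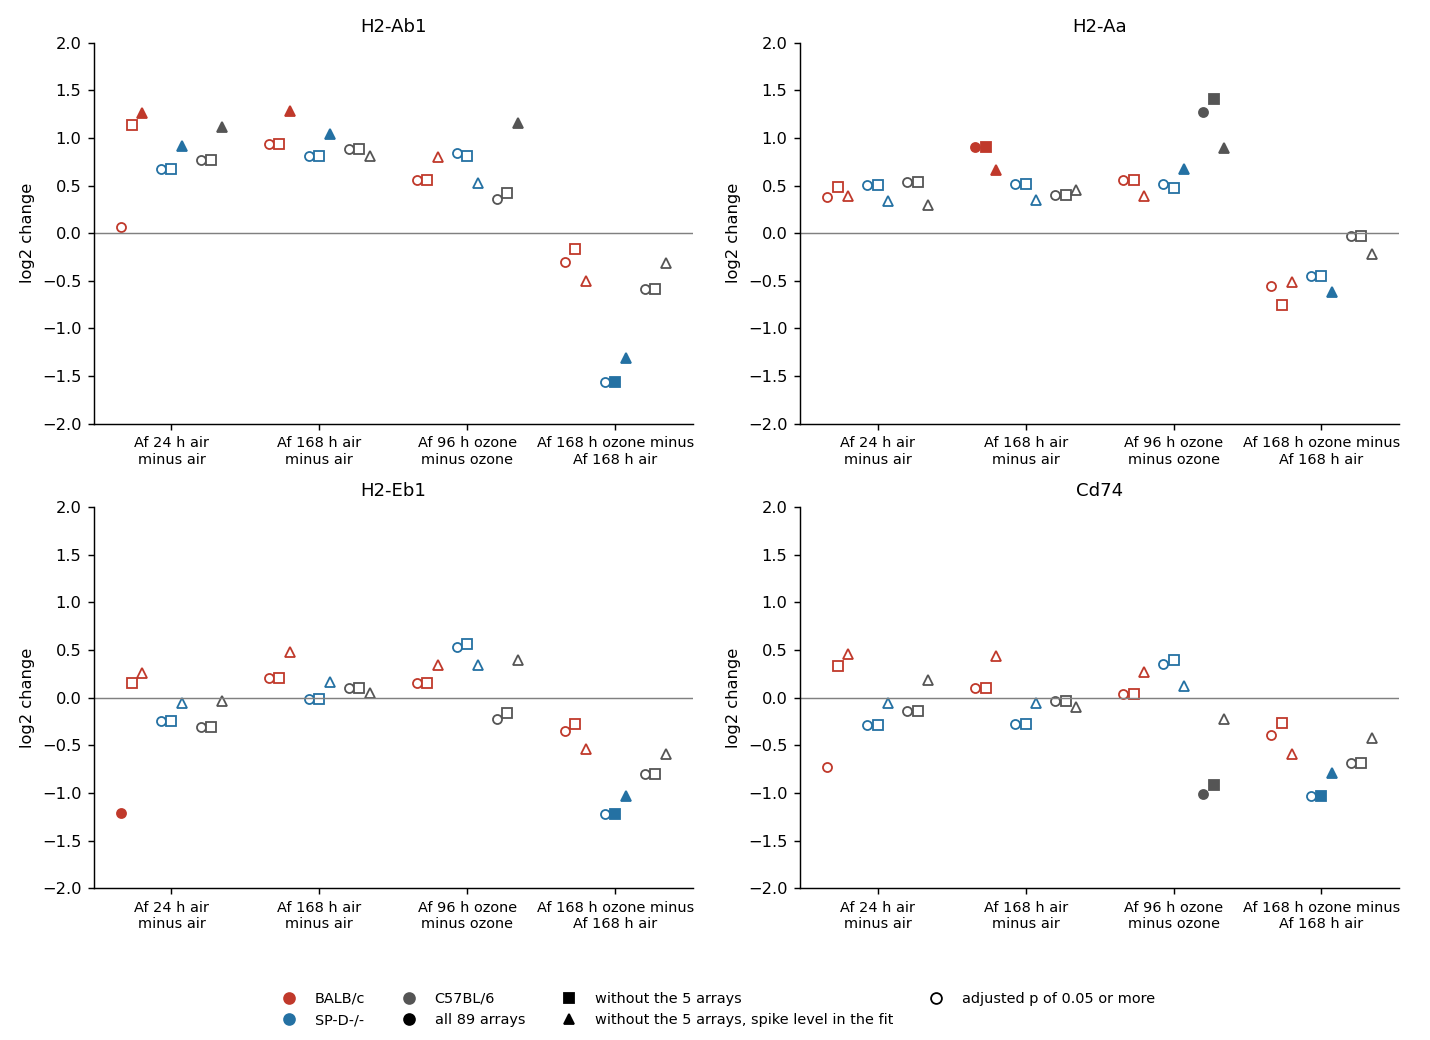
Log2 change of H2-Ab1, H2-Aa, H2-Eb1 and Cd74 for each exposure comparison in each strain, in the fit of all 89 arrays, on 84 arrays, and on 84 arrays with the spike level as a covariate. Filled symbols are called by limma; H2-Aa in C57BL/6 at Af 96 h ozone minus ozone stays filled in all 3 fits, at 1.27, 1.40 and 0.89.

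Differences between strains in these responses were tested as interaction contrasts. The Af 96 h ozone minus ozone response of H2-DMa was higher in SP-D-/- than in C57BL/6 lungs by 3.08 ± 0.86 (limma adjusted p = 0.0093), that of Cd74 by 1.36 ± 0.48 (limma adjusted p = 0.030) and that of Ciita by 1.25 ± 0.40 (limma adjusted p = 0.018). Of all genes 27.4% were called in this contrast. For H2-DMa the response was 1.81 in SP-D-/- and -1.27 in C57BL/6, for Cd74 0.35 and -1.01, and for Ciita 0.79 and -0.46. The Ciita values are from its chosen probe set, with which the probe set 1421210_PM_at had r of -0.16 over all arrays. The call of Cd74 was lost without SP-D-/- ozone replicate 2, 4 or 5 (1.32, 1.29 and 1.32) and that of Ciita without replicate 5 (0.93). The spike level went the other way, with 9.41 ± 0.61 at Af 96 h ozone and 10.4 ± 1.29 after ozone in SP-D-/- lungs, against 10.9 ± 0.45 and 8.59 ± 1.14 in C57BL/6 lungs. With it as a covariate on the 84 arrays the differences were 1.11 for H2-DMa, 0.35 for Cd74 and 0.50 for Ciita, and none was called. Of all genes 0.325% were called in that fit, against 27.4% in the fit of all arrays.

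The other SP-D-/- minus C57BL/6 response contrasts held no called class II gene. Of all genes 0% were called for ozone minus air, 0% for Af 24 h air minus air, 0.00664% for Af 168 h air minus air and 0.0398% for Af 168 h ozone minus Af 168 h air. Likewise no class II gene was called in the BALB/c minus C57BL/6 contrasts, where the shares were 0% for ozone minus air, 0.0133% for Af 24 h air minus air, 0% for Af 168 h air minus air, 0% for Af 96 h ozone minus ozone and 0% for Af 168 h ozone minus Af 168 h air. Over all genes limma gave 1157 and 564 unadjusted p under 0.05 in the 2 SP-D-/- contrasts without a call, and 131, 619, 1042 and 1171 in the 4 BALB/c contrasts without one, in the order above.

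Among themselves H2-Eb1, H2-Ab1, H2-DMa, H2-DMb1 and Cd74 varied together across the arrays of a group. After subtracting group means over the 89 arrays, r was 0.86 between H2-Eb1 and H2-Ab1, 0.87 between H2-Eb1 and Cd74, 0.87 between H2-Ab1 and Cd74 and 0.60 to 0.76 for the pairs with H2-DMa or H2-DMb1. Ciita had r of 0.27 to 0.41 with these 5 genes. H2-Aa had r of -0.28 to 0.12 with the other genes, and H2-Ea had r of -0.02 to 0.17 with the other 7. The 89 arrays include the 5 libraries set apart. BALB/c Af 24 h air, which holds 2 of them, had the widest spread in H2-Eb1, H2-Ab1 and Cd74, with SD of 1.88, 1.69 and 1.64. These r were not computed without the libraries set apart. The arrays also share their probes, their normalization and differences in spike level, so these values are descriptions.

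The spike level moved with several of these genes within groups. After subtracting group means its r over 89 arrays was -0.67 with H2-DMa, -0.54 with Cd74, -0.50 with H2-DMb1, -0.48 with Ciita, -0.47 with H2-Eb1 and -0.46 with H2-Ab1, against 0.66 with the chosen H2-Aa probe set and 0.18 with H2-Ea. H2-DMa was under 6 on 20 arrays from 12 groups. Their spike level was 9.85 to 11.72 (median 11.1), against 7.86 to 11.76 (median 9.25) on the 69 arrays at or above 6. H2-DMb1 was under 6 on 7 arrays, with a median spike level of 11.4. Fits of group changes with the spike level as a covariate are given above. Its part in the signals of single arrays was not tested.

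**Figure D5:**
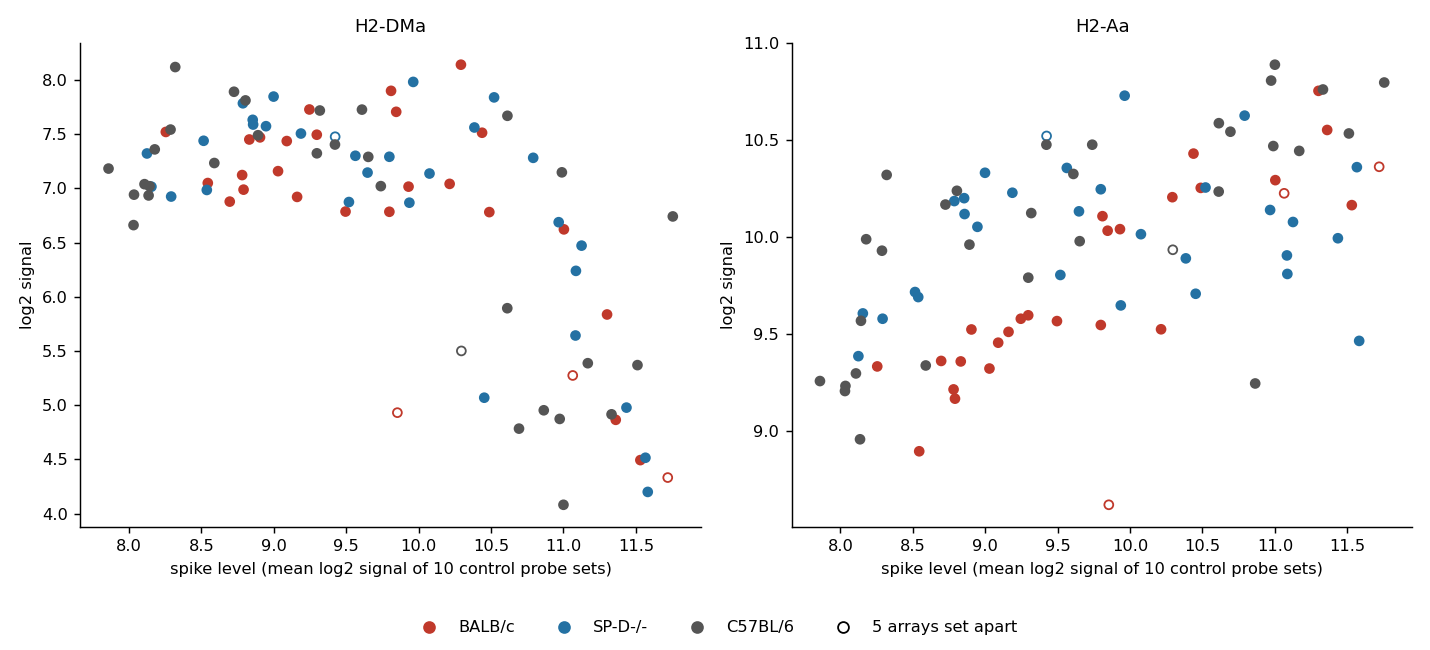
Log2 signal of H2-DMa and H2-Aa against the spike level of each of the 89 arrays, coloured by strain, with the libraries set apart as open symbols. Arrays with H2-DMa under 6 all have a spike level of 9.85 or more, and H2-Aa is higher where the spike level is higher.

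The wider class II pathway was followed by 19 genes, all measured and tested. They are further class II chains (H2-Oa, H2-Ob, H2-DMb2, H2-Eb2), the proteases and reductase that prepare peptides (Ctss, Ctsl, Lgmn, Ifi30), promoter factors (Rfx5, Rfxap, Rfxank, Nfya, Nfyb, Nfyc, Creb1), Marchf1, a ligase that removes class II from the surface, and the costimulators Cd80, Cd86 and Cd40. Between BALB/c and C57BL/6 lungs in air 1 of 19 was called, H2-Ob, a chain of the H2-DM inhibitor, at -1.55 (limma adjusted p = 0.031). At Af 96 h ozone 2 of 19 rose in BALB/c over C57BL/6 (Ctsl at 1.73 and Nfya at 1.40) and the same 2 were called in SP-D-/- over C57BL/6 (Ctsl at 1.56 and Nfya at 1.57), where 6.26% and 16.2% of all genes were called, both comparisons sharing the C57BL/6 arrays. The list's median was 0.30 in BALB/c and 0.60 in SP-D-/-, against 0.04 and 0.10 over all genes. Ctsl is a cysteine protease of the endosome, and Nfya is a subunit of the factor that binds the Y box.

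Among exposures, C57BL/6 lungs at Af 96 h ozone minus ozone had 1 of the 19 higher (Rfx5 at 0.69) and 2 lower (Ctsl at -2.19 and Nfya at -1.24), with a list median of -0.33. These 3 of 19 stand against 36.4% of all genes called there. C57BL/6 lungs at Af 24 h air minus air had Cd40 higher at 0.97 and Nfyb lower at -1.32, where 16.2% of all genes were called. SP-D-/- lungs at Af 168 h ozone minus Af 168 h air had Ifi30, the thiol reductase, lower at -1.76, with a list median of -0.42. In the SP-D-/- minus C57BL/6 contrast of the Af 96 h ozone response 5 of 19 were higher and 1 lower, led by Ctsl at 2.98, Marchf1 at 2.41 and Nfya at 1.94, with a list median of 0.76 against 0.20 over all genes. Those 6 of 19 are near the 27.4% of all genes called in that contrast.

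Interferon gamma is the classical inducer of Ciita. Of 10 tested genes of that axis, Cxcl10, an interferon-induced chemokine, rose at Af 24 h air over air in all strains, by 1.38 in BALB/c, 2.17 in SP-D-/- and 2.25 in C57BL/6. Irf1 was called in BALB/c at 0.91 and in SP-D-/- at 0.75, and Ifngr1 in BALB/c at -0.73. The BALB/c values at Af 24 h air include the 2 libraries set apart. Of all genes 12.1% were called at Af 24 h air over air in BALB/c, 4.71% in SP-D-/- and 16.2% in C57BL/6. Between SP-D-/- and C57BL/6 lungs at Af 96 h ozone 2 of 10 were called higher, where 16.2% of all genes were called. These were Irf8 at 1.55 and Socs1, for which no size is given because its signal was below the filter level. The list's median there was 0.49, against 0.10 over all genes. In C57BL/6 at Af 96 h ozone over ozone 1 was higher and 1 lower, with a median of -0.60 and 36.4% of all genes called. In the matching response contrast 3 of 10 were higher, with a median of 0.84 against 0.20 and 27.4% of all genes called. Ifng, Cxcl9 and Socs1 were below the filter level in every group mean. Ciita itself changed by 0.04 in BALB/c, -0.29 in SP-D-/- and -0.01 in C57BL/6 at Af 24 h air over air. None was called, and these values are from the chosen of its 3 probe sets. The second, 1421210_PM_at, averaged 5.185 over all arrays, against 5.456 for the chosen one, and had r of -0.16 with it. In air the second averaged 4.58 in BALB/c, 4.79 in SP-D-/- and 4.86 in C57BL/6 lungs, against strain medians of 5.17, 5.13 and 5.15. The third averaged 3.88 and had r of 0.35 with the chosen one. Changes of Ciita by the other probe sets are not given. Of 7 tested class I pathway genes, Tapbp was lower in C57BL/6 at Af 24 h air over air (-1.11) and, with H2-D1 (-0.79), at Af 96 h ozone over ozone (-0.98).

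Some markers of class II-bearing cells, and of T cells, were called between SP-D-/- and C57BL/6 lungs at Af 96 h ozone, at shares near the 16.2% of all genes. There 1 of 8 dendritic cell markers (Ccl22 at 1.92), 2 of 9 macrophage and monocyte markers (Cd68 at 2.13 and Mrc1 at 1.85) and 1 of 7 T cell markers (Cd3g at 1.15) were called higher by limma. Of the 7 B cell and 5 alveolar type 2 markers none was called, with changes of -0.88 (Cr2) to 1.05 (Ms4a1) and of -0.24 (Sftpa1) to 0.55 (Slc34a2). The list medians were 0.62 for dendritic cells, 0.80 for macrophages and monocytes, 0.74 for T cells, 0.32 for B cells and 0.20 for type 2 cells, against 0.10 over all genes. Of the 6 lung checks 4 were called higher too (Col1a1 at 2.07, Pecam1 at 2.04, Cldn5 at 1.66 and Ager at 0.87). In the matching response contrast, with 27.4% of all genes called, 5 of 9 macrophage and monocyte markers were higher, led by Cd68 at 3.02, Siglecf at 1.75 and Adgre1 at 1.71. Over the 18 groups the mean signal of the measured markers ran from 5.26 to 6.25 for dendritic cells, 5.25 to 6.26 for B cells, 5.41 to 6.42 for macrophages and monocytes and 9.43 to 10.6 for alveolar type 2 cells. Xcr1, Pax5 and Itgam were below the filter level in every group mean. The part of these cell types in the class II values was not tested, and in whole lung RNA fewer cells of a type and less RNA per cell cannot be told apart.

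At Af 24 h air over air few of these markers were called, where 12.1% of all genes were called in BALB/c, 4.71% in SP-D-/- and 16.2% in C57BL/6. Of 8 dendritic cell markers Ccl17, a chemokine, rose by 0.86 in BALB/c, 1.29 in SP-D-/- and 1.61 in C57BL/6, and Zbtb46, a transcription factor of classical dendritic cells, fell by 1.22 in C57BL/6. Of 9 macrophage and monocyte markers Siglecf, a marker of alveolar macrophages, fell by 1.47 in BALB/c and by 1.18 in C57BL/6, and the list's medians of 0.01 and 0.04 did not follow it. Of 5 type 2 cell genes Slc34a2 and Abca3 fell by 1.37 and 1.11 in BALB/c and Abca3 by 0.99 in SP-D-/-. Of 7 B cell markers Cd79a, a receptor subunit, rose by 0.96 in BALB/c. At Af 168 h air over air Ccr2, a monocyte receptor, was called at 1.98 in BALB/c, 1 of 9 macrophage and monocyte markers, in the comparison in which H2-Aa was called and 1.56% of all genes were.

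The genes whose group means followed H2-Ea most closely over the 18 groups were Tmem87a (r = 0.98), Pianp (0.98), Gbp2b (0.97), Fbp2 (0.97) and Polr3gl (0.97). The 18 means fall into the BALB/c groups and the rest, so these values describe a strain difference. In air Tmem87a was 7.91 ± 0.21 in BALB/c lungs, 5.46 ± 0.36 in SP-D-/- lungs and 5.47 ± 0.27 in C57BL/6 lungs. Gbp2b, an interferon-induced GTPase, was 6.86 ± 0.21 in BALB/c lungs, 3.57 ± 0.38 in SP-D-/- lungs and 3.47 ± 0.09 in C57BL/6 lungs. Pianp, Fbp2 and Polr3gl were higher in BALB/c than in C57BL/6 air lungs by 1.60, 2.62 and 2.51. Polr3gl encodes a subunit of RNA polymerase III.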

How the data were processed

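Lung RNA on 89 Affymetrix HT Mouse430PM arrays (NuGEN amplification, per the labels' protocols) was deposited as log2 values already normalized by the authors, running from 1.86 to 13.5. The normalization software is not given in the sources used here. Of 45141 probe sets, 28898 mapped to 1 gene, 551 to several and 15692 to none, and 104 were controls. A gene, read by its brightest probe set on average, was tested if above the 40th percentile (4.45) on at least 4 arrays. Group means were fitted with limma 3.58.1 in R 4.3.3 (lmFit, eBayes, two-sided) with Benjamini-Hochberg adjustment over the 15065 genes tested. Changes carry the fit's SE and levels the SD. Data for all 89 arrays were simulated from each gene's mean and residual SD, and some genes were raised in BALB/c air. In the BALB/c minus C57BL/6 air test, 32% of genes raised by 1 and 90% of genes raised by 2 on the log2 scale were recovered. There were 4 false calls among the genes not raised, of 15065 simulated. The simulated noise was independent between genes, with no difference shared across an array such as the spike level. The effect of such differences on false calls was therefore not tested.

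The 8 genes, the lists and the alternatives were chosen with earlier results of these data known. From each list the 3 largest called changes of a comparison could be named, and from the correlations the 5 genes most like H2-Ea and the 8 most like the mean of H2-Aa, H2-Ab1, H2-Eb1 and Cd74. Same-numbered arrays deviated together in every pair (r over 0.1) for BALB/c with C57BL/6 at Af 168 h air and for C57BL/6 with ozone or air at Af 168 h, with mean r of 0.26 and 0.34 over 4 pairs each. Python 3.11.15 with pandas 2.3.3 and matplotlib 3.10.9 did the rest.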

Additional observations from a re-analysis of the deposited data

Results flagged for a closer look

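In 136 gene and group pairs of 4 to 6 arrays, 15 held an array far from the others of its group, beside about 1 in 20 that chance gives. For H2-Ea these were BALB/c Af 168 h ozone replicate 6 at 5.48, with its other arrays at 8.93 to 9.23, and C57BL/6 ozone replicate 5 at 5.96. For H2-Eb1 they were C57BL/6 Af 24 h air replicate 3 at 10.16 and C57BL/6 Af 168 h air replicate 3 at 10.69, both the highest of their groups. For H2-Aa it was C57BL/6 ozone replicate 3 at 8.96. For H2-Ab1 they were SP-D-/- Af 168 h ozone replicate 6 at 6.84 and BALB/c Af 96 h ozone replicate 1 at 8.25, both the lowest of their groups. For H2-DMa they were SP-D-/- Af 24 h air replicate 1 at 4.51, BALB/c Af 96 h ozone replicate 1 at 4.49, C57BL/6 air replicate 5 at 5.89 and C57BL/6 ozone replicate 5 at 4.95, all low. C57BL/6 ozone replicate 5 was also low in H2-DMb1, at 4.70. For Cd74 they were BALB/c air replicate 6 at 10.92 and SP-D-/- ozone replicate 3 at 11.69. For Ciita it was SP-D-/- air replicate 2 at 6.17.

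The response to Af 96 h ozone over ozone differed between SP-D-/- and C57BL/6 lungs by the test of the difference in H2-DMa (3.08), Cd74 (1.36) and Ciita (1.25). These values are for the chosen probe sets.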

How the results depend on the processing

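H2-Ea was called higher in BALB/c than in C57BL/6 at all 6 exposures in each fit of its chosen probe set to all 18 groups, except some of those without 1 array at Af 168 h ozone. Its probe set 1426202_PM_at gave 0.36 in air, 0.11 after ozone, 0.11 at Af 24 h air, 0.48 at Af 96 h ozone, 0.67 at Af 168 h air and 0.26 at Af 168 h ozone, none called. With only the 2 groups compared in the fit, 2.74 at Af 24 h air and 2.81 at Af 168 h ozone were no longer called. Leaving out 1 array gave 2.45 to 3.70 at Af 168 h ozone, not called without BALB/c replicate 3, 4 or 5 (2.55, 2.45 and 2.55). With a replicate block H2-Ea at Af 168 h air was 4.18 and stayed called.

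Directions turned for H2-Aa by probe set 1452431_PM_s_at (BALB/c minus C57BL/6 at Af 96 h ozone 1.76, SP-D-/- minus C57BL/6 1.41, C57BL/6 Af 96 h ozone minus ozone -0.79, BALB/c Af 24 h air minus air -1.72), by 1443783_PM_x_at (BALB/c Af 168 h air minus air -0.10) and by the mean of its probe sets (SP-D-/- minus C57BL/6 at Af 96 h ozone 0.89). They turned for H2-Eb1 in BALB/c at Af 24 h air minus air on the 84 arrays, at 0.16, and with the spike level at 0.26. The cause was not tested.

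The SP-D-/- minus C57BL/6 calls (3) were all lost with the spike level on all arrays, where 1 other was made, H2-Aa at Af 168 h ozone (-0.72). That fit called 0.803% of all genes at Af 96 h ozone and 1.23% at Af 168 h ozone. Calls of C57BL/6 exposures (3) were 6 with only the groups compared. Calls of SP-D-/- exposures (0) were 1 with the mean of probe sets, 2 with only the groups compared, 1 with the replicate block and 3 on the 84 arrays. They were 7 with the spike level added, and 1 each with the actin difference (log2 signal of beta-actin's 3' control over its 5' one) and with the spike level on all arrays. The 3 were at Af 168 h ozone minus Af 168 h air, where 2.06% of all genes were called. Of the 7, 4 were in that comparison (1.27% of all genes), and 1 each at Af 24 h air (6.22%), Af 168 h air (3.41%) and Af 96 h ozone (1.67%). With the spike level on all arrays the call was at Af 96 h ozone, with 2.13% of all genes. Calls of BALB/c exposures (3) were 1 on the 84 arrays, at Af 168 h air (2.56% of all genes), and 1 with the actin difference. Calls of strain differences in responses (3) were 5 with cyclic loess and 0 with the spike level on all arrays, with it on the 84 arrays and with the actin difference. In the contrast that held the 3, the spike level left 0.0332% of all genes called on all arrays and 0.325% on the 84. Leaving out 1 array gave 0 to 4 calls in BALB/c exposures, 0 to 3 in SP-D-/- exposures and 1 to 4 in responses. H2-Ab1 in SP-D-/- minus C57BL/6 at Af 96 h ozone lost its call in 8 of 11 such fits, and H2-Aa in BALB/c at Af 168 h air in 5 of 11. The spike level on all arrays and single probe sets were chosen after seeing the data. For fits other than those on the 84 arrays or with the spike level, no share of all genes is given beside these counts.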

Other observations

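The genes that most closely followed the mean of H2-Aa, H2-Ab1, H2-Eb1 and Cd74 across the arrays of a group, after subtracting group means over 89 arrays, were Ctss (r = 0.85), Sftpc (0.84), Chil1 (0.84), Cebpa (0.84), Ctsz (0.83), Ctsh (0.82), Slc34a2 (0.81) and Chil3 (0.81). Ctss is the protease that trims the invariant chain, Ctsz and Ctsh are further cathepsins, and Sftpc and Slc34a2 are genes of alveolar type 2 cells. The arrays share normalization and differences in spike level, and the r of that mean with the spike level was -0.37 within groups. They include the libraries set apart, of which BALB/c Af 24 h air replicates 4 and 5 had that mean at 8.86 and 7.32. The other arrays of that group had 10.2, 10.5 and 10.3. These r were not computed without the libraries set apart. Between BALB/c and C57BL/6 lungs in air these genes differed by at most 0.30 and were not called, except Chil3, a chitinase-like gene of alveolar macrophages, which was 8.67 ± 0.48 in BALB/c lungs, 10.5 ± 0.19 in SP-D-/- lungs and 10.5 ± 0.26 in C57BL/6 lungs. Its BALB/c minus C57BL/6 change was -1.85 (limma adjusted p = 0.0039).

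In C57BL/6 lungs at Af 96 h ozone, replicates 2 and 3 of the 4 arrays not set apart had 4.31 and 3.81 on the second H2-Ea probe set and strain indices of -0.49 and -0.29. Replicate 6 of the same group had 2.71 and -0.86. Such values were not limited to this group. C57BL/6 Af 24 h air replicate 1 had 4.49 and -0.21, and SP-D-/- Af 168 h air replicate 5 had 3.91 and -0.60. C57BL/6 Af 168 h ozone replicate 5 had an index of -0.10, with 2.83 on that probe set.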
